A study of Rattus norvegicus with 9 samples.

Results

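S100a8 and S100a9, which encode the subunits of calprotectin, were followed in rat lung macrophages after nitrogen mustard together with Slpi, an antiprotease, Retnlg, a resistin-like protein of granulocytes, and Csf3r, the receptor of granulocyte colony-stimulating factor (G-CSF). They are 5 of the 17109 genes left when the deposited transcript values were summed by gene symbol, and 1 transcript row stood for each. The 5 were chosen by their FPKM 1 day after exposure, when they were high, so their day 1 values are given as a description with no test, and so is any difference that uses the day 1 libraries. The day 28 values of all but Retnlg were set against controls with a test.

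The libraries hold RNA of alveolar macrophages, which clear the air spaces by phagocytosis, from male Wistar rats weighing 225 to 250 g. One group received phosphate-buffered saline (PBS) into the trachea, and its day of exposure is labelled 0. Whether these rats were collected with the day 1 group, the day 28 group or both is not given in the sources used here, so time since instillation and age cannot be told apart from NM in a difference from PBS. The other groups received nitrogen mustard (NM, mechlorethamine, an alkylating agent that cross-links DNA) at 0.125 mg/kg by the same route and were studied 1 day and 28 days later. Each group had 3 libraries, numbered 0, 1 and 2 and described as biological replicates, so errors and p-values measure the spread between these libraries. All 9 came from cells freed by massaging the lung, so other cells of the air spaces may be among them. In such bulk samples fewer cells of a type and less RNA per cell cannot be told apart.

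Calprotectin is a heterodimer of small calcium-binding proteins that fills the cytosol of neutrophils and is also made by monocytes and by some activated macrophages. Outside the cell it binds zinc and manganese, which microbes need, and it acts on Toll-like receptor 4 (Tlr4) and on the receptor for advanced glycation end products (Ager). Slpi is secreted by airway epithelium, neutrophils and macrophages and inhibits neutrophil elastase and cathepsin G. Retnlg is found in rodent granulocytes and their precursors. Csf3r passes the G-CSF signal through Jak and Stat proteins and is carried by granulocytes and by cells of the monocyte lineage.

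The stretches just before the start sites are shown for the members found in RefSeq's promoter table (3 of 5 matched: S100a9, Retnlg and Csf3r), because these genes were high in the same libraries. S100a8 and Slpi are named only. Each is the 250 bases before the start site on build GRCr8, 5′ to 3′: S100a9 at chr2:178490623-178490872 on the minus strand, Retnlg at chr11:65395640-65395889 on the minus strand, and Csf3r at chr5:143582970-143583219 on the plus strand. Capitals mark matches, on either strand, to 5 motifs. The TATA box was searched as TATAAA. The core bound by C/EBP factors was searched as TTGCNNAA, and the core bound by STAT proteins as TTCNNNGAA. The AP-1 motif was searched as TGANTCA, and the core bound by PU.1 as GAGGAA.
S100a9: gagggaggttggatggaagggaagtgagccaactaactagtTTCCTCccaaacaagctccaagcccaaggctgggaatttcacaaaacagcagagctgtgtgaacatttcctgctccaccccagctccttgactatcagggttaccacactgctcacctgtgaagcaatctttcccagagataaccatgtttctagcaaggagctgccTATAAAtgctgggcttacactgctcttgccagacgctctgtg
Retnlg: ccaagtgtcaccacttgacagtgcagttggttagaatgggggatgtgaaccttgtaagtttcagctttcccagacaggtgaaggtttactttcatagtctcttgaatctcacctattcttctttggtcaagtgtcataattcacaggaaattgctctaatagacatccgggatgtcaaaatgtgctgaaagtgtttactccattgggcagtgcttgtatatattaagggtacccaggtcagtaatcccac
Csf3r: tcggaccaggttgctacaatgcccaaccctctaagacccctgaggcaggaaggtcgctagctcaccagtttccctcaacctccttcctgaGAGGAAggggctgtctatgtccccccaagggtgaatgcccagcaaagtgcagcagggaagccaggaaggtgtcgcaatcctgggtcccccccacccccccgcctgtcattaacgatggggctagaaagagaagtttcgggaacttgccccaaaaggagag
S100a9 held TATAAA with its first base at -42 from the start site and GAGGAA on the reverse strand, read as TTCCTC, at -209. Csf3r held GAGGAA at -160. None of the 5 motifs was in the Retnlg stretch. Of 33469 such 250-base stretches in the rat table, 12.9% held TATAAA, 23.3% GAGGAA, 9.22% TTGCNNAA, 7.67% TTCNNNGAA and 6.34% TGANTCA.

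The values are fragment counts scaled to transcript length and library size (FPKM), which allow levels of different genes to be compared per length. Absolute depth is unknown. Relative depth, read from the steps between low FPKM values with NM day 1 replicate 0 set to 1, lay between 1.42 and 2.58 in PBS, 1 and 1.47 at day 1 and 1.04 and 1.12 at day 28. The macrophage marker Cd68 ranged from 724 to 1355 FPKM and the mannose receptor Mrc1 from 201 to 419 FPKM over the 9 libraries. Mrc1 was lower at day 28, at 201 to 283 FPKM, than in PBS, at 347 to 419 FPKM. Marco, a scavenger receptor of alveolar macrophages, was listed at 0 in all 9. Of the transcript rows, 73 had a 0 in some library but over 20 FPKM elsewhere, so a 0 here may be a failed estimate.

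One day after NM, all 5 genes were higher in every NM library than in any PBS library, as their choice had set. In PBS libraries 0, 1 and 2 S100a8 stood at 4.33, 16.1 and 26.5 FPKM, at day 1 it stood at 287, 274 and 231 FPKM, and at day 28 at 202, 64.5 and 266 FPKM. Its PBS values differed by several fold among themselves, and its day 1 values lay close together. S100a9, the partner subunit, had 1.88, 5.17 and 5.41 FPKM in PBS, 416, 299 and 161 FPKM at day 1, and 319.7, 78.3 and 346 FPKM at day 28. From low PBS levels both subunits came among the more abundant transcripts: S100a8 ranked 5151 of 17109 genes by mean FPKM in PBS and 364 at day 1, and S100a9 went from rank 7967 to rank 332.

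Slpi, the antiprotease, had 0.503, 1.04 and 0.909 FPKM in PBS, 81.5, 116 and 107 FPKM at day 1, and 32.2, 8.02 and 26.9 FPKM at day 28. It was near 1 FPKM in each PBS library and varied little at day 1. RefSeq lists pseudogene copies of Slpi (Slpi-ps1 and Slpi-ps2), with which reads may be shared. Retnlg was listed at 0 in all 3 PBS libraries, although the lowest relative depth of these exceeded that of 5 of the 6 NM libraries. It had 36.0, 10.6 and 25.1 FPKM at day 1 and 6.30, 0 and 4.63 FPKM at day 28. Csf3r had 13.4, 27.2 and 5.55 FPKM in PBS, 88.9, 82.6 and 58.3 FPKM at day 1, and 43.0, 40.5 and 51.9 FPKM at day 28. The receptor had the highest PBS share of its day 1 level of the 5 genes, and its groups stood apart at each time.

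**Figure D1:**
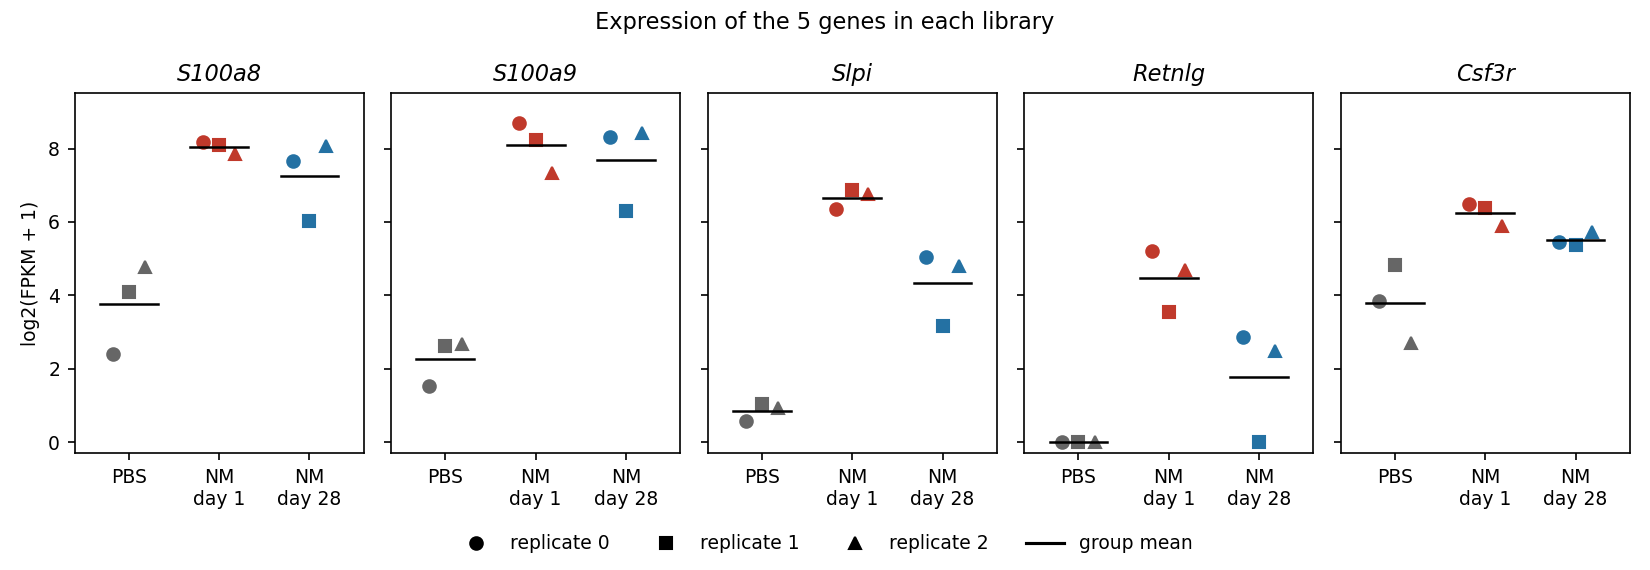
Log2(FPKM + 1) of S100a8, S100a9, Slpi, Retnlg and Csf3r in each of the 9 libraries, by group, with the symbol shape giving the replicate number and a line the group mean of the log2 values. All day 1 libraries lie above all PBS libraries, and NM day 28 replicate 1 is the lowest day 28 library for each gene.

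The day 1 difference from PBS was largest for S100a9 and Slpi. On the log2(FPKM + 1) scale, which understates differences of low genes, the day 1 minus PBS difference was 5.81 (SE 0.52) for S100a9, 5.81 (SE 0.39) for Slpi, 4.48 (SE 0.62) for Retnlg, 4.28 (SE 0.56) for S100a8 and 2.46 (SE 0.39) for Csf3r. Among the 9885 genes that reached 1 FPKM in at least 3 libraries, these were ranks 3, 4, 15, 19 and 92 from the top. As ratios of group means, Slpi was 124-fold higher (101 ± 17.7 against 0.818 ± 0.281 FPKM, SD, n = 3), S100a9 70.2-fold (292 ± 127 against 4.15 ± 1.97 FPKM), S100a8 16.9-fold (264 ± 29.2 against 15.6 ± 11.1 FPKM) and Csf3r 4.97-fold (76.6 ± 16.1 against 15.4 ± 10.98 FPKM). No ratio is given for Retnlg, since its PBS values are at 0. Groups that did not overlap, with day 1 above PBS, were found for 15.2% of the genes tested.

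At day 28 the calprotectin genes, Slpi and Csf3r were still higher than in PBS. The test was limma on log2(FPKM + 1) with Benjamini-Hochberg adjustment over the 9885 genes, of which 3.07% were called higher at an adjusted p under 0.05. S100a9 rose by 5.41 (SE 0.52, adjusted p = 0.000362), the largest of all day 28 differences. Slpi rose by 3.49 (SE 0.39, adjusted p = 0.000401), S100a8 by 3.49 (SE 0.56, adjusted p = 0.00335) and Csf3r by 1.73 (SE 0.39, adjusted p = 0.0225), at ranks 9, 10 and 72. Their day 28 means were 59.7-fold (S100a9, 248 ± 147 FPKM), 27.4-fold (Slpi, 22.4 ± 12.7 FPKM), 11.3-fold (S100a8, 177 ± 103 FPKM) and 2.93-fold (Csf3r, 45.1 ± 5.98 FPKM) those of PBS. For each of these 4 genes the 3 day 28 libraries lay above the 3 PBS libraries, as they did for 12.7% of genes tested. Retnlg reached 1 FPKM in 0 PBS and 2 day 28 libraries and entered the fit only through its day 1 libraries, which chose it, so its day 28 difference of 1.79 (SE 0.62) is given with no test. Of its day 28 libraries 1 was at 0 like those of PBS. This comparison shares its PBS libraries with that of day 1, and the day 28 values too were known when the 5 genes were picked.

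The calls of S100a8, S100a9 and Slpi at day 28 held under every alternative run, and that of Csf3r turned on single libraries. Csf3r missed the threshold without PBS replicate 0 (adjusted p = 0.0512), without NM day 28 replicate 0 (0.0541) and without NM day 28 replicate 2 (0.0750, limma). The day 28 difference of Retnlg was 2.68 without NM day 28 replicate 1, again with no test.

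**Figure D2:**
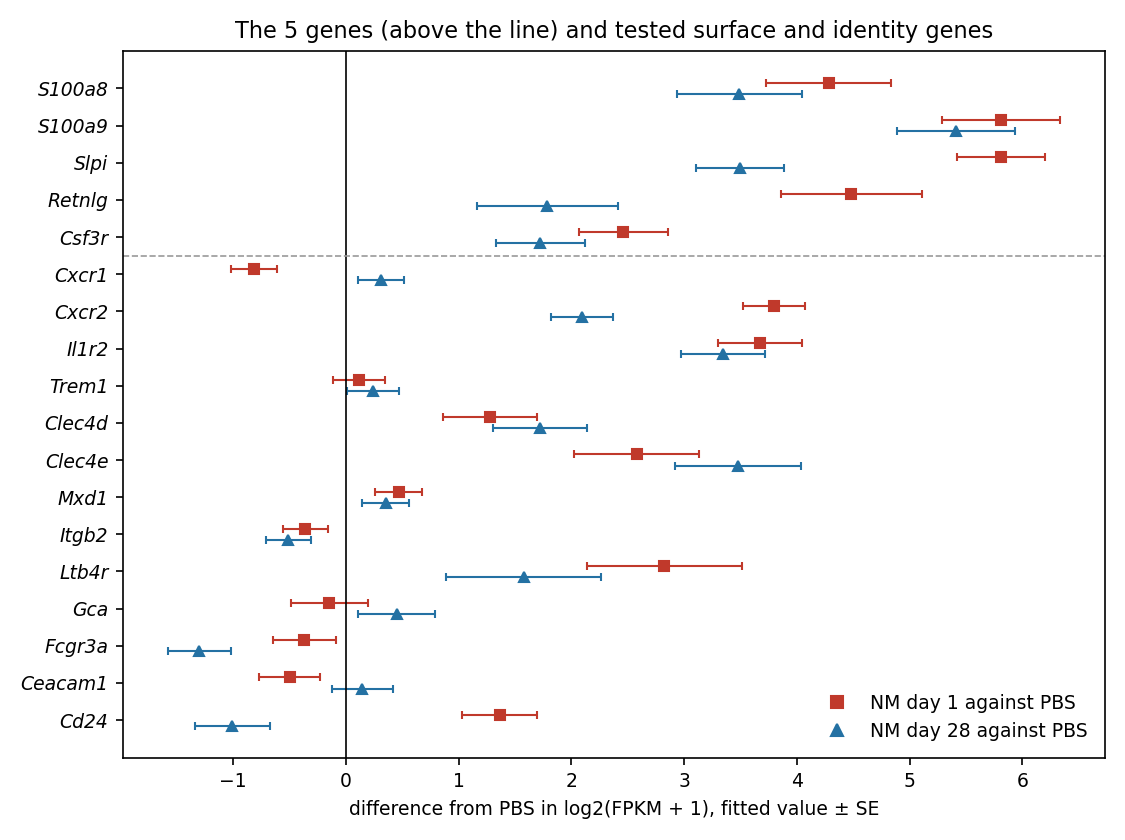
Log2(FPKM + 1) differences from PBS at day 1 and day 28 for the 5 genes (above the dashed line) and for most tested genes of the neutrophil surface and identity list. Points are fitted values and bars their SE from limma. S100a9 has the largest day 28 difference shown, 5.41, and Cxcr1 at day 1 lies below 0 while Cxcr2 and Il1r2 lie above it.

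From day 1 to day 28 the members parted. Slpi and Retnlg were lower in every day 28 library than in any day 1 library, with day 28 means at 22.1% and 15.2% of those at day 1, and Csf3r was at 58.9%, also with no overlap. Among all genes tested, 15.7% had day 28 groups wholly below those of day 1. The calprotectin genes overlapped between the days, S100a8 at 67.2% and S100a9 at 85.0% of the day 1 mean. On the log2(FPKM + 1) scale the day 28 minus day 1 differences were -2.70 for Retnlg, -2.32 for Slpi, -0.79 for S100a8, -0.74 for Csf3r and -0.40 for S100a9. These use the libraries that chose the genes and carry no test.

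Much of the day 28 spread came from NM day 28 replicate 1, which was the lowest of its group for all 5 genes. S100a8 there was 64.5 FPKM against 202 and 266 in the other day 28 libraries, S100a9 78.3 against 319.7 and 346, and Slpi 8.02 against 32.2 and 26.9. Csf3r, at 40.5 FPKM, lay close to the other day 28 libraries. Over all genes tested this library was the lowest of its group in 39.2% and the highest in 38.8%, and in 5.10% it lay under 0.5 times both others, against 0.991% to 2.6% for the other 8 libraries. Without it the day 28 difference from PBS was 4.10 for S100a8, 6.10 for S100a9, 4.08 for Slpi and 1.80 for Csf3r (adjusted p = 0.000824, 2.29e-05, 7.49e-06 and 0.0343 by limma). The day 28 minus day 1 difference then changed sign for S100a9, to 0.29, and was -0.18 for S100a8, -1.73 for Slpi and -1.80 for Retnlg.

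Within each group the calprotectin subunits ordered the libraries alike. From high to low the order was 2, 1, 0 in PBS, 0, 1, 2 at day 1 and 2, 0, 1 at day 28 for both S100a8 and S100a9. Csf3r had this order at day 1 and day 28 but not in PBS, where it ran 1, 0, 2. Slpi had the order 1, 2, 0 in PBS and at day 1, where its lowest library was the highest for both calprotectin genes, and 0, 2, 1 at day 28. Retnlg, all at 0 in PBS, had 0, 2, 1 at day 1 and, like Slpi, at day 28. With 3 libraries in each of 3 separate groups no correlation over libraries is given.

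The balance of the calprotectin subunits differed between the groups. S100a8 exceeded S100a9 in every PBS library, with ratios of their FPKM of 2.31, 3.11 and 4.90. At day 1 the ratios were 0.691, 0.919 and 1.44, and at day 28 0.631, 0.824 and 0.771. No NM library reached the lowest PBS ratio, and all 3 day 28 libraries, the low one included, had more S100a9 than S100a8. The PBS ratios rest on low S100a9 levels, between 1.88 and 5.41 FPKM. Slpi stood at 0.168 to 0.268 of S100a9 in PBS, at 0.196 to 0.664 at day 1 and at 0.0780 to 0.102 at day 28, where the 3 libraries were all below those of the other groups. These ratios are made of the values that chose the genes and were not tested.

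**Figure D3:**
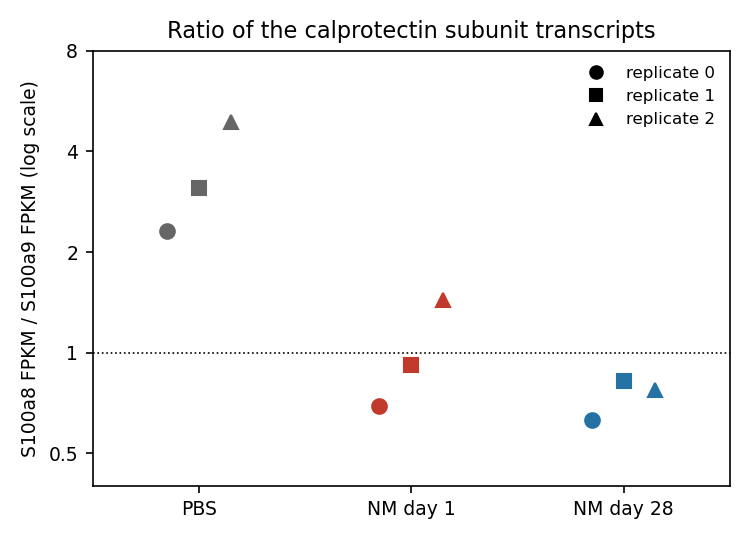
Ratio of S100a8 to S100a9 FPKM in each library, by group, on a log scale, with the symbol shape giving the replicate number and a dotted line at a ratio of 1. PBS libraries lie between 2.31 and 4.90, day 1 libraries between 0.691 and 1.44 and day 28 libraries between 0.631 and 0.824.

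Likeness to a member was measured by the root mean square (RMS) difference of log2(FPKM + 1) over the 9 libraries, each gene centred on its own mean. The closest genes by this measure, which counts size of change as well as shape, are given. For S100a8 these were Chi3l1 (RMS 0.56), a chitinase-like lectin, Itgam (0.67), an integrin of myeloid cells, and Ccl2 (0.69), a monocyte chemokine. For S100a9 they were Srgn (0.62), the core protein of granule proteoglycans, Ccl2 (0.69) and Csf1 (0.90), with S100a8 at place 4 (0.92). For Slpi they were Ccl2 (0.57), Srgn (0.61) and the nucleoside transporter Slc28a2 (0.65). Retnlg was closest to Bcl3 (0.71), Slc28a2 (0.73) and Chi3l1 (0.82), and Csf3r to Ifgga2l1 (0.43) and Ier3 (0.44). The other members stood at places 12 to 68 from S100a8, 4 to 51 from S100a9 and 7 to 78 from Slpi. From Retnlg they stood at places 13 to 360, and from Csf3r at 6861 to 9849. Genes were not scaled, so a gene of small change lies far from genes of large change whatever their shape. The day 1 difference from PBS was 2.46 for Csf3r and 5.81 for S100a9. These places therefore do not compare the shape of the patterns alone. Srgn went from 1.99 ± 0.298 FPKM in PBS to 130 ± 62.5 at day 1 and 62.3 ± 37.0 at day 28 (SD, n = 3). Likeness here reflects mostly the shift between the 3 groups, and no p is attached to it.

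Few S100 genes beyond calprotectin were called. Of 10 other S100 genes tested by limma, 2 rose at day 1 and 0 fell, where 5.28% of all genes rose and 4.58% fell, and at day 28 0 rose and 1 fell, where 3.07% rose and 3.98% fell. Counts of 0 to 2 among 10 genes do not set the family apart at such shares. The family's median log2 difference was -0.16 at day 1 and -0.45 at day 28, beside -0.04 and -0.04 for all genes. At an unadjusted p under 0.05, 2 were higher and 1 lower at day 1, and 1 was higher and 3 lower at day 28. The genes called were S100g and S100a16 at day 1 and S100a16 at day 28. Levels per length were far above those of calprotectin for S100a6, at 13585 ± 2591 FPKM in PBS, 8793 ± 1650.2 at day 1 and 7319.9 ± 1759 at day 28, and for S100a11 and S100a4. S100g, a vitamin D-dependent calcium buffer, rose at day 1, from 5.10 ± 3.19 to 54.9 ± 37.0 FPKM (log2 difference 3.03, adjusted p = 0.0179 by limma). S100a16 had 5.91 ± 2.32, 13.6 ± 3.44 and 2.08 ± 0.933 FPKM in PBS, at day 1 and at day 28, and fell between the days (-2.26, adjusted p = 0.00116). Both S100g and S100a16 at day 1 lost their calls when PBS replicate 0, NM day 1 replicate 0 or NM day 1 replicate 1 was left out, and S100a16 also when PBS replicate 1 or 2 was (largest adjusted p 0.181). At day 28 the S100a16 call ended with any library left out but PBS replicate 0 and NM day 28 replicate 0 (largest adjusted p 0.202).

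Receptors of calprotectin were present in all groups. Tlr4 had 12.95 ± 3.46 FPKM in PBS, 18.7 ± 1.65 at day 1 and 13.1 ± 4.55 at day 28, and did not pass at either time (adjusted p = 0.213 and 0.983 by limma). Its co-receptors were higher in level, Ly96 at 230.1 ± 31.5 and Cd14 at 64.9 ± 4.70 FPKM in PBS. Of all genes tested, 5.28% were called higher at day 1 and 3.07% at day 28. Of 10 genes in this list, limma called 1 higher at day 1 and 0 at day 28 (1 higher and 1 lower at day 28 at an unadjusted p under 0.05). The 1 was Ager, from 12.4 ± 3.24 to 31.5 ± 11.2 FPKM (log2 difference 1.23, adjusted p = 0.0214), a gene that also marks type I alveolar epithelium. Leaving out PBS replicate 0, NM day 1 replicate 0 or NM day 1 replicate 1 ended this call (largest adjusted p 0.111).

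Genes for several neutrophil granule proteins were near 0 FPKM in every group. Of 26 listed genes 21 were matched, and 8 of these were under 1 FPKM in all 9 libraries, among them those of neutrophil elastase (Elane), proteinase 3 (Prtn3), lactoferrin (Ltf) and neutrophil collagenase (Mmp8). Cathepsin G (Ctsg) and the defensins Np4 and Defa5 were listed at 0 in all 9. Other listed genes reached higher levels: 10 of the 21 had a mean of at least 1 FPKM in PBS, 11 at day 1 and 12 at day 28. The summed FPKM of the 21 was 13305 to 25340 in PBS, 8353 to 13046 at day 1 and 13015 to 15198 at day 28. Most of this sum was the lysozyme gene Lyz2, at 17251 ± 5752 FPKM in PBS, 9891 ± 2445 at day 1 and 12504 ± 1410 at day 28. The sum therefore says little about the other granule genes. Myeloperoxidase (Mpo) was not analysed here. Of 13 granule genes tested by limma, 0 rose and 1 fell at day 1, where 5.28% of all genes rose and 4.58% fell, and 0 rose and 0 fell at day 28, where 3.07% rose and 3.98% fell. At shares like these, counts of 0 or 1 among 13 genes do not set the list apart. The median log2 differences were -0.08 and -0.41. At an unadjusted p under 0.05 the counts were 3 higher and 4 lower at day 1, and 2 higher and 0 lower at day 28.

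The cathelicidin gene Camp, of specific granules, had 49.9 ± 16.2 FPKM in PBS, 37.9 ± 9.25 at day 1 and 31.6 ± 11.6 at day 28, with no call. Lcn2, the siderophore-binding lipocalin, stood at 17.5 ± 8.11, 67.2 ± 40.2 and 12.3 ± 16.8 FPKM, and fell from day 1 to day 28 (-2.95, adjusted p = 0.0262 by limma). Mmp9, gelatinase B, was at 0.115 ± 0.108, 0.554 ± 0.405 and 1.28 ± 0.795 FPKM. Cybb, the catalytic subunit of the phagocyte oxidase, which macrophages also express, was the gene that fell at day 1 (-0.64, adjusted p = 0.0277). The Cybb call ended without any 1 of the PBS or day 1 libraries (adjusted p up to 0.106), and that of Lcn2 when replicate 0 or 1 of day 1, or 0 or 2 of day 28, was left out (up to 0.109). Without NM day 28 replicate 1, 2 granule genes passed as higher at day 1, Lcn2 (adjusted p = 0.0310) and Pglyrp1 (0.0201), and 2 as lower, while at day 28 Mmp9 passed as higher (0.0403) and Lcn2 as lower (0.0224). The count that fell from day 1 to day 28 was 1 of 13, where 6.88% of all genes fell and 4.75% rose.

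Surface and identity genes of neutrophils included strong rises next to falls. Of 15 tested, 6 rose and 1 fell at day 1, where 5.28% of all genes rose and 4.58% fell. At day 28 5 rose and 1 fell, where 3.07% of all genes rose and 3.98% fell. The list's median log2 differences were 1.28 and 0.45, beside -0.04 and -0.04 for all genes. Those that rose included Cxcr2, Il1r2, Clec4e, Cd24 and Ltb4r at day 1 and Il1r2, Cxcr2, Clec4e and Clec4d at day 28, and those that fell were Cxcr1 and Fcgr3a, respectively. Cxcr2, the receptor for Cxcl1 and Cxcl2 on neutrophils, had 0.627 ± 0.209 FPKM in PBS, 22.2 ± 6.83 at day 1 and 6.08 ± 1.96 at day 28. It rose at day 1 (3.796, adjusted p = 6.00e-06 by limma) and at day 28 (2.10, adjusted p = 0.000992), and was lower at day 28 than at day 1 (-1.70, adjusted p = 0.00233). Il1r2, a decoy receptor for interleukin 1, went from 7.63 ± 1.75 to 113 ± 43.5 and 94.0 ± 43.4 FPKM (differences of 3.67 and 3.35 in log2(FPKM + 1), adjusted p = 9.73e-05 and 0.000401 by limma). Its day 1 and day 28 calls held under every alternative run.

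Cxcr1 went the other way from Cxcr2 at day 1. It had 288 ± 78.1 FPKM in PBS, 162 ± 29.4 at day 1 and 349 ± 10.4 at day 28, fell at day 1 (-0.81, adjusted p = 0.0281) and was higher at day 28 than at day 1 (1.12, adjusted p = 0.00488 by limma). Its level in PBS, per length, was far above that of Cxcr2. Clec4e, a receptor for damaged cells, rose at both times (2.58 and 3.48, adjusted p = 0.0147 and 0.00338), and Cd24 fell from day 1 to day 28 (-2.37, adjusted p = 0.00111). Fpr1, the formyl peptide receptor, was under 1 FPKM in all 9 libraries, and Lrg1 and Stfa3 were listed at 0. The summed FPKM of the 19 matched genes was 799 to 1224 in PBS, 883 to 977 at day 1 and 920 to 1033 at day 28. Most of the PBS sum came from Fcgr3a, Cxcr1, Itgb2 and Trem1, with means of 295, 288, 236 and 101 FPKM. The sum therefore says little about genes of low level such as Cxcr2. The count higher at day 1 was 3 without PBS replicate 0 or 1 and with replicate 0 of day 1 left out, where the calls of Clec4e, Cd24 and Ltb4r ended (adjusted p up to 0.111), and those of Cd24 and Ltb4r ended also without replicate 1 of day 1. Leaving out any of these, or replicate 1 of day 1, ended the day 1 call of Cxcr1 as well (up to 0.138). The day 28 calls of Clec4d and Fcgr3a ended without PBS replicate 0, PBS replicate 1 or replicate 2 of day 28, and that of Clec4d also without replicate 0 of day 28 (largest adjusted p 0.129 and 0.0621).

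**Figure D4:**
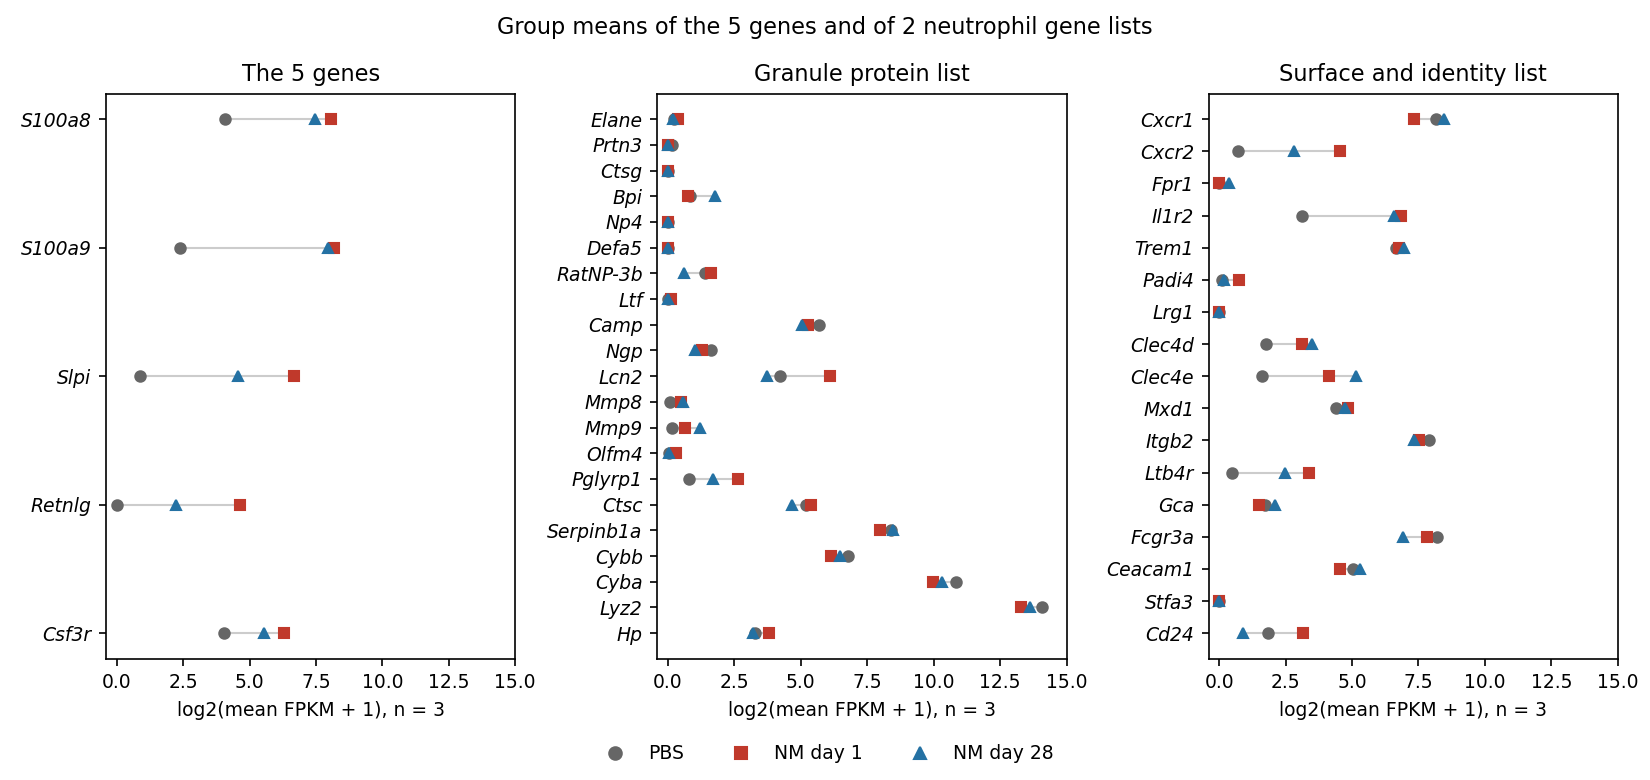
Group means (n = 3) as log2(mean FPKM + 1) in PBS, at day 1 and at day 28 for the 5 genes, the 21 matched granule genes and most matched surface and identity genes (Pglyrp1 stands with the granule genes). Elane, Ctsg, Ltf and others lie near 0 in all groups, while Cxcr2 goes from a mean of 0.627 FPKM in PBS to 22.2 at day 1 and 6.08 at day 28.

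Other antiproteases moved singly. Of 11 tested beside Slpi, 3 rose and 0 fell at day 1, where 5.28% of all genes rose and 4.58% fell. At day 28 2 rose and 2 fell, where 3.07% of all genes rose and 3.98% fell. The list's median log2 differences were -0.22 and 0.09, and 3 were lower at day 1 at an unadjusted p under 0.05. Cst3, Timp1 and Serpinb9 rose at day 1, and at day 28 Cstb and Timp1 rose and Wfdc2 and Wfdc10a fell. Of these calls only that of Cst3 held with every single library left out. Cst3, cystatin C, an inhibitor of cysteine proteases, rose from 476 ± 78.3 to 1423 ± 222 FPKM at day 1 and was 549 ± 179 at day 28 (1.58, adjusted p = 0.00158, and -1.41 between the days, adjusted p = 0.00310, limma). Wfdc2, which carries the same kind of domain as Slpi, had 136 ± 87.7, 288 ± 43.4 and 29.3 ± 19.8 FPKM. It fell from day 1 to day 28 (-3.60, adjusted p = 0.00224), so that it was below PBS at day 28 (-2.35, adjusted p = 0.0307) while Slpi was above it. The day 28 call of Wfdc2 against PBS ended without PBS replicate 1 or 2 (adjusted p up to 0.129).

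Of the resistin family, Retnla, a marker of alternative activation that epithelium also makes, went along with Retnlg. It had 0, 0 and 2.47 FPKM in PBS, 14.98 to 105 at day 1 and 3.48 to 13 at day 28 (4.69, adjusted p = 0.001, and 2.55, adjusted p = 0.0388, by limma). Replicates 0 and 2 of PBS and of day 28 and replicate 0 of day 1, each left out, ended the day 28 call (largest adjusted p 0.12). Retn was under 1 FPKM in every library and Retnlb was listed at 0.

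Genes downstream of Csf3r were called in both directions, in counts too small among 22 genes to set the list apart. Of 22 genes of G-CSF receptor signalling tested by limma, 2 rose and 3 fell at day 1, where 5.28% of all genes rose and 4.58% fell, and 1 rose and 2 fell at day 28, where 3.07% rose and 3.98% fell, with median log2 differences of -0.07 and -0.04, the latter that of all genes. Socs3 and Cish rose and Syk, Ptpn6 and Akt1 fell at day 1, and at day 28 Socs3 rose and Ptpn6 and Akt1 fell. Of these calls only that of Socs3 at day 1 held with every single library left out. Socs3, the feedback inhibitor of this receptor and of other Stat3 signals, rose from 10.1 ± 1.495 to 52.5 ± 19.6 FPKM at day 1 and 33.7 ± 14.9 at day 28 (2.20, adjusted p = 0.00283, and 1.54, adjusted p = 0.0234, by limma). Stat3 itself had 37.1 ± 2.77, 47.3 ± 6.24 and 46.0 ± 1.68 FPKM, with no call. The day 28 call of Socs3 ended when PBS replicate 0 or 1, or replicate 0 or 2 of day 28, was left out (largest adjusted p 0.0862). Of 6 transcription factors of granulocyte development tested by limma, 1 rose and 0 fell at day 1, and 0 rose and 2 fell at day 28, Klf5 and Spi1 (3 lower at day 1 and 0 higher at day 28 at an unadjusted p under 0.05). Irf8, which favours monocytes, rose at day 1 (0.88, adjusted p = 0.0164) and fell again by day 28 (-1.06, adjusted p = 0.00491). Cebpe, needed for specific granules, stayed at means under 1 FPKM in each group. The day 28 calls of Klf5 and Spi1 ended in several fits with a library left out (largest adjusted p 0.152 and 0.119). The day 1 call of Irf8 ended when replicate 1 of PBS or of day 1 was left out (largest adjusted p 0.0808).

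Attractants of neutrophils rose with the members at day 1 in part. Of 9 tested, 4 rose and 1 fell at day 1, where 5.28% of all genes rose and 4.58% fell. At day 28 2 rose and 1 fell, where 3.07% of all genes rose and 3.98% fell. Cxcl17, Il1b, Cxcl2 and Cxcl1 rose at day 1, Cxcl2 and Il1b at day 28, and Alox5, which makes leukotriene precursors, fell at both times. The calls of Alox5 and the day 1 call of Cxcl1 ended in several fits with a library left out (largest adjusted p 0.182 and 0.105). Cxcl2, a ligand of Cxcr2, went from 5.15 ± 0.789 to 47.6 ± 27.9 and 54.2 ± 25.2 FPKM (adjusted p = 0.00408 and 0.00298 by limma), and Il1b from 12.4 ± 2.86 to 133 ± 55.5 and 115 ± 66.6 FPKM (0.000903 and 0.00302). Cxcl17, a chemokine of mucosal epithelium, was higher at day 1 than in PBS (3.999) and lower at day 28 than at day 1 (-3.93). At day 28, 2 of 3 libraries listed it at 0. Cxcl17 and Cxcl1 passed the filter only with their day 1 libraries, so their calls rest on the group where they are high.

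Markers of other cells moved in the same libraries, and their part in the members' differences was not tested. Over all genes tested, 5.28% rose and 4.58% fell at day 1, and 3.07% rose and 3.98% fell at day 28. Of 15 monocyte and recruited macrophage genes 10 rose and 0 fell at day 1 and 6 rose and 0 fell at day 28, and the summed FPKM of the 17 matched was 224 to 275 in PBS, 487 to 653 at day 1 and 338 to 371 at day 28. At an unadjusted p under 0.05, 1 was lower at day 1 and 3 at day 28 by limma. F13a1 and Ace were under 1 FPKM in all 9. Of 13 alveolar epithelial genes 9 rose and 0 fell at day 1 (1 lower at an unadjusted p under 0.05) and 1 rose and 1 fell at day 28 (Hopx and Aqp5), with summed FPKM of 234 to 355, 1014 to 3038 and 300.4 to 399, and Sftpd at 0. Ccr2, Ly6c, Lamp3 and Slc34a2, counted above as rising at day 1, passed the filter only with their day 1 libraries, where they were high. Sftpc, surfactant protein C, had 46.1 ± 28.6, 1226 ± 882 and 28.5 ± 2.86 FPKM, with no call at day 28 against PBS (-0.52, adjusted p = 0.524 by limma). The highest epithelial sum was in NM day 1 replicate 0, which was the highest day 1 library for S100a8, S100a9, Retnlg and Csf3r and the lowest for Slpi. Airway epithelial sums, led by Scgb1a1, were 1545 to 8471 FPKM in PBS, 1534 to 3638 at day 1, overlapping PBS, and 907 to 1450 at day 28, below every PBS library. Of 6 airway genes tested by limma, 0 rose and 1 fell at day 1, and 0 rose and 3 fell at day 28, with 0 higher at either time at an unadjusted p under 0.05. T and natural killer cell sums were 21.7 to 32.3, 82.1 to 84.9 and 31.1 to 39.6 FPKM. Resident macrophage sums were 2062 to 3829 in PBS, 2095 to 2327 at day 1 and 2379 to 2572 at day 28. Of 11 such genes tested, 1 rose and 1 fell at each time. Car4 rose at day 1 (3.33, adjusted p = 0.00105 by limma) and at day 28 (2.46, adjusted p = 0.00953). Pparg fell at day 1 (-0.57, adjusted p = 0.0315 by limma) and Mrc1 at day 28 (-0.73, adjusted p = 0.0323). Of 19 alternative runs, the Pparg call ended in 8, the Mrc1 call in 7 and the day 28 call of Car4 in 1.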

How the data were processed

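Per the submitters' processing notes, TopHat, Cuffdiff and the rat build rn4 were used; versions, annotation and strand setting: not given in the sources used here. Libraries were TruSeq, read as 75 bp pairs, per the labels' protocols. The table the authors deposited holds FPKM for 18197 RefSeq transcript rows, of which 17189 (94.5%) were given a symbol from a RefSeq table, and no read counts were used here. FPKM of rows with the same symbol were summed. The 9885 genes that reached 1 FPKM in 3 or more of the 9 libraries entered limma 3.58.1 in R 4.3.3 (lmFit, eBayes with trend) on log2(FPKM + 1), a pseudocount of 1, with 3 group means, the spread shared over all 9 libraries and Benjamini-Hochberg adjustment over all genes tested. An adjusted p under 0.05 is a call. The fit was checked on simulated data. Tables came from pandas 2.3.3 and numpy 2.4.6, and figures from matplotlib 3.10.9, in Python 3.11.15.

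The members, gene lists, tests and alternatives were chosen with earlier results of these data known. The rule for named genes took the 5 members, for each list and comparison up to 4 calls of lowest p, the 3 genes most like each member, and a few genes whatever their values (among them Cxcr1, Camp, Lcn2, Mmp9, Tlr4, Stat3 and S100a6). Ly96, S100a11, Ltb4r, Pglyrp1, Lyz2, Itgb2, Trem1, Lamp3, Slc34a2 and marker genes listed at 0 or under 1 FPKM were named after their values were seen. A few genes of the lists are counted but not reported by name here. Alternatives changed the pseudocount (0.1, 5), the filter (none, 5 FPKM), the scaling (quantile normalisation, median of ratios), the model (replicate block, robust eBayes, the 6 libraries compared alone), the unit (single isoforms) or left out each library in turn.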

Additional observations from a re-analysis of the deposited data

Results flagged for a closer look

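S100a16, a calcium-binding relative of the calprotectin genes, was above PBS at day 1 and below it at day 28 (5.91 ± 2.32, 13.6 ± 3.44 and 2.08 ± 0.933 FPKM in PBS, at day 1 and at day 28, SD, n = 3), and the 2 days differed by -2.26 on the log2(FPKM + 1) scale (adjusted p = 0.00116 by limma). The water channel gene Aqp5, a marker of type I alveolar epithelium, took the same course, from 7.89 ± 2.45 to 18.8 ± 4.20 and 0.786 ± 0.764 FPKM, with a difference between the days of -3.53 (adjusted p = 4.76e-05 by limma).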

How the results depend on the processing

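Without NM day 28 replicate 1 the day 28 minus day 1 difference of S100a9 was 0.29 instead of -0.40, and the cause was not tested. Pseudocounts of 0.1 and 5 gave day 1 differences of 6.82 and 4.18 for Slpi and 7.74 and 2.42 for Retnlg, and 0.1 gave -3.88 for Retnlg from day 1 to day 28, as follows from the scale. The day 28 difference of Csf3r, 1.73, missed the threshold with no filter (adjusted p = 0.0674) and with only the 6 libraries compared (0.0645, limma). With each library left out in turn, day 1 differences ran from 3.61 to 4.79 for S100a8, 5.44 to 6.19 for S100a9, 5.68 to 5.96 for Slpi, 4.12 to 4.96 for Retnlg and 1.92 to 2.97 for Csf3r. Those of day 28 ran from 2.81 to 4.10, 5.04 to 6.10, 3.14 to 4.08, 1.25 to 2.68 and 1.18 to 2.24, and those between the days from -1.20 to -0.18, -0.77 to 0.29, -2.67 to -1.73, -3.24 to -1.80 and -0.92 to -0.62.

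Over all genes tested, 324 were higher at day 1 and 408 lower from day 1 to day 28 with a filter of 5 FPKM, and 212 were lower at day 28 with only the 6 libraries compared. With a library left out the counts ran from 252 to 656 higher and 66 to 718 lower at day 1, 154 to 367 and 117 to 426 at day 28, and 225 to 628 and 394 to 775 between the days, fewer libraries being part of this by construction. Granule genes higher at day 1 numbered 2 with only the 6 libraries compared and 0 to 2 with a library left out. Those lower at day 1 numbered 0 after quantile normalisation, 2 with only the 6 libraries compared and 0 to 2 with a library left out. At day 28 the left-out range was 0 to 1 in each direction, and between the days 0 to 1 higher and 0 to 1 lower, with 2 higher after quantile normalisation and 0 lower with no filter or robust eBayes. Surface genes numbered 3 to 7 higher and 0 to 1 lower at day 1 (0 lower after quantile normalisation), 4 to 6 and 0 to 2 at day 28, and 1 to 1 and 2 to 3 between the days.

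Same-numbered libraries did not deviate together (r from -0.104 to 0.196 over genes), so the numbers were not taken as a pairing. With the replicate block the day 28 difference of Retnlg was 1.79, as without it, and 1 granule gene was higher at day 1. Retnlg, Slpi in PBS and most granule genes lie near or under 1 FPKM, where few fragments limit what can be told apart.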
